A study of Homo sapiens with 8 samples.

Results

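SOX4, SOX11 and SOX12 are the 3 members of the SoxC group of transcription factors, and their RNA was followed here in SK-N-BE(2) neuroblastoma cells with and without knockdown of METTL14. They were taken by symbol from a count table of 56303 genes and were selected on their input level, their IP over input and the change of both. These values are therefore a description of the 3 genes, and no p-value is given for them. SK-N-BE(2) is an established human neuroblastoma cell line with MYCN amplification. Either a non-targeting hairpin (sh-NC) or one against METTL14 (shMETTL14) was expressed, in 2 cultures of each kind, from which an input and an IP library each were made, 8 libraries in all. The labels do not say whether the numbered shMETTL14 cultures are repeats of 1 shRNA or different shRNAs, nor whether the cultures were grown apart, so p-values measure only the spread between these libraries, which may be technical. As all libraries are of bulk RNA, fewer cells with a transcript and less of it per cell cannot be told apart. In MeRIP-seq, fragmented messenger RNA is sequenced before (input) and after (IP) pull-down with an antibody against N6-methyladenosine (m6A). A gene's IP over input is thus relative to the average gene, and a loss of m6A shared by all genes would not be seen in it.

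SoxC proteins bind DNA through a high-mobility-group (HMG) box and activate transcription through a domain at the C terminus. SOX4 and SOX11 act in newborn neurons and sympathetic progenitors, where they switch on neuronal genes after commitment, and SOX11 is part of the adrenergic transcription factor network of neuroblastoma. SOX12 has the same domains and is the weaker activator of the group. METTL14 is the partner that lets METTL3 methylate adenosines in messenger RNA, mostly in long exons and near stop codons.

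The total count was between 32027379 and 47205265 per library. METTL14 input RNA, as CPM (reads of a gene relative to the library size after TMM scaling), was 49.5 and 48.8 in sh-NC against 13.7 and 14.6 in shMETTL14, so the target of the shRNA was low in the libraries labelled as knockdown. The cells carried the markers of adrenergic neuroblastoma, with 8 of 8 such markers at 1 CPM or more in every library. Of 4 Schwann cell or glial markers, SOX10 stayed under 1 CPM in every library, and the summed level of the 4 was 4.86 to 6.77 CPM. The summed level of 5 mesenchymal markers was 2260 to 2333 CPM in the sh-NC inputs and 1858 to 1863 CPM in the shMETTL14 inputs, most of it VIM, whose exons overlap those of 2 other genes. That of the 8 adrenergic markers was 5843 to 6073 and 6176 to 6251 CPM, most of it MYCN, while TH, DBH and CHGA, genes of catecholamine synthesis and storage, were higher in the shMETTL14 inputs by log2 fold changes of 1.03, 0.84 and 0.58 (edgeR adjusted p = 7.94e-13, 8.68e-04 and 2.13e-12). The part of these shifts in the results below was not tested. The exons of DBH overlap a gene on the opposite strand with at least 69.3% of its counts.

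Each of the 3 genes has 1 exon in the count table, all on the forward strand, so that most of the transcript can carry m6A far from any splice junction. In GRCh38 coordinates SOX4 lies on chromosome 6 from 21592768 to 21598619 (5852 bases), SOX11 on chromosome 2 from 5692667 to 5701385 (8719 bases) and SOX12 on chromosome 20 from 325595 to 330224 (4630 bases). SOX4 shares 168 bases with a noncoding gene on the opposite strand, whose counts were 0.235% to 1.31% of those of SOX4. SOX11 shares 74 bases with AC010729.1 on the same strand, whose counts were 1.10% to 1.82% of those of SOX11. SOX12 shares no exonic base with another gene. Reads of overlapping genes thus had little room to move the counts of the group.

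RefSeq promoter sequence (GRCh38.p14) was at hand for SOX4 and SOX12. The 2 start regions are unlike each other, with a GC content of 49.3% for SOX4 and 80.3% for SOX12, against a median of 58.7% over the same windows of 35116 promoters. The RefSeq start of SOX4 lies inside the longer exon of the count table, so the whole of this window is transcribed in that annotation. Both regions hold the letters CCAAT, on both strands in SOX4 and on the reverse strand in SOX12, a match to the CCAAT box that binds NF-Y, as do 34.6% of all promoters. SOX12 also holds ATGCAAAT, the octamer bound by POU factors, which are known partners of SOX proteins, and 1.77% of all promoters hold it on either strand. It lies next to, and not over, the CCAAT match. SOX12 further holds 4 matches of GGGCGG, the GC box bound by SP1, on either strand and SOX4 holds none, where 45.0% of all promoters hold it. The octamer and 1 of the GC boxes are shown as letters found in SOX12 and not in SOX4, and CCAAT matches as letters found in both, with the motif in capitals (ATTGG is CCAAT on the other strand).
SOX4 (chr6:21593627-21593651, forward strand): gggttccaagCCAATgggaagcccg
SOX4 (chr6:21593684-21593708, forward strand): acagcagctgATTGGctgcagccaa
SOX12 (chr20:325346-325370, forward strand): gcggccagcgATTGGgagatgcaaa
SOX12 (chr20:325354-325381, forward strand): cgattgggagATGCAAATaccggcttct
SOX12 (chr20:325454-325479, forward strand): tgtttacacgGGGCGGccccgcgcgc
CACGTG, the E-box bound by MYCN, TATAAA and the SOX site AACAAAG were not in either window on either strand. These letters are matches of sequence and were not tested for binding.

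All 3 genes were well expressed in the control cells, in the order SOX4, SOX11, SOX12. Per kilobase of exon, input RNA in sh-NC was 40.1 ± 0.471 CPM for SOX4, 19.8 ± 0.0908 for SOX11 and 15.5 ± 0.707 for SOX12 (SD, n = 2 cultures). Neighbours in this order lay apart by more than their spread in both arms. Over the 4 inputs, SOX4 ranked 822, SOX11 ranked 1528 and SOX12 ranked 2092 among 13394 protein-coding genes by level per kilobase. Of the other SOX genes, SOX2 had the highest level per kilobase in the sh-NC inputs, at 10.5 and 10.2 CPM, below all 3 SoxC genes.

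The 3 genes then parted after METTL14 knockdown. SOX11 and SOX12 RNA was higher in the inputs of shMETTL14 cells, and SOX4 RNA was lower. SOX11, the member most tied to the adrenergic state, had input levels of 172 and 173 CPM in sh-NC against 216 and 222 CPM in shMETTL14. Both knockdown cultures were above both control cultures, and the log2 fold change was 0.35 (standard error 0.0359). The input levels of SOX12 were 74.1 and 69.5 CPM in sh-NC against 82.6 and 86.2 CPM in shMETTL14. The groups did not overlap here either, and the log2 fold change was 0.24 (standard error 0.0468). Those of SOX4 were 233 and 237 CPM in sh-NC against 204 and 207 CPM in shMETTL14. Both knockdown cultures were below both controls, and the log2 fold change was -0.19 (standard error 0.0349).

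With edgeR's quasi-likelihood test at an adjusted p-value under 0.05, 2 members were called higher and 1 lower, where 11.7% and 12.3% of the 22245 genes tested were called in these directions. Separate groups of 2 are common in these data, and the inputs of 28.5% of all genes were higher and those of 29.9% lower in shMETTL14 without overlap. As the genes were chosen with these values known, nothing is read from the counts. SOX12 was no longer called without shMETTL14 culture 2 (log2 fold change 0.21).

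**Figure D1:**
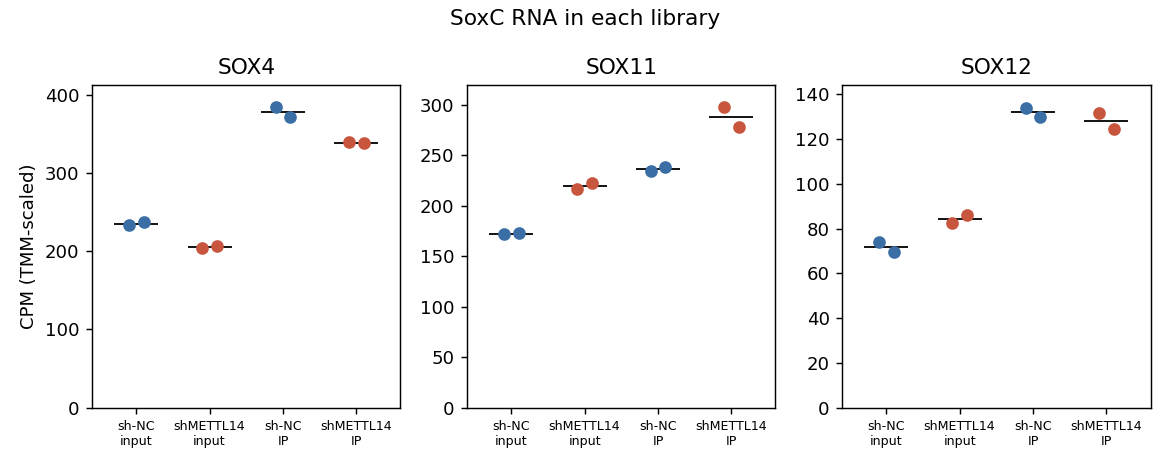
TMM-scaled CPM (y axis, from 0) of SOX4, SOX11 and SOX12 in each of the 8 libraries. Points are libraries, blue for sh-NC and red for shMETTL14, and lines are means of 2. Input RNA of SOX4 was lower and that of SOX11 and SOX12 higher in shMETTL14, and in the IP libraries SOX12 overlapped between the arms.

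The balance within the group moved with these changes while its sum moved little. The summed SoxC level per kilobase was 75.4 ± 0.145 CPM in the sh-NC inputs and 78.4 ± 1.39 CPM in the shMETTL14 inputs (SD, n = 2). SOX4 made up 52.7% and 53.7% of this sum in the control inputs, against 45.0% and 44.5% after knockdown. The share of SOX11 was 26.1% and 26.3%, against 32.0% and 32.1%. That of SOX12 was 21.2% and 19.9%, against 23.0% and 23.4%. For each of the 3 genes the shares of the arms did not overlap. The 3 shares are parts of the same sum, so they are not separate observations. They also rest on the input values with which the genes were chosen. Input levels without overlap were higher in shMETTL14 for 28.5% and lower for 29.9% of all genes, so nothing is read from this. The level of SOX4 over that of SOX11, per kilobase, was 2.03 ± 0.0145 in sh-NC and 1.40 ± 0.0139 in shMETTL14 (SD, n = 2). SOX4 thus remained the most abundant member per kilobase in both arms, and the gap to SOX11 was smaller in the knockdown.

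RNA of all 3 genes was enriched by the m6A antibody in control cells. SOX12 had the highest ratio of IP to input, at 1.81 and 1.87 in the sh-NC cultures. SOX4 followed with 1.65 and 1.57, and SOX11 had 1.36 and 1.38. The ratios of the 3 genes did not overlap in sh-NC. On the log2 scale the fit gave an IP over input of 0.88 for SOX12 (standard error 0.0459), 0.69 for SOX4 (standard error 0.0373) and 0.46 for SOX11 (standard error 0.0398). All 3 were called higher in IP, as were 29.1% of the 22953 genes tested. SOX11, the longest of the 3 transcripts, had the lowest ratio.

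Genes with a single exon stood high in the IP as a class, and the SoxC genes lay within that class. The median log2 IP over input in sh-NC was 0.01 over 13560 protein-coding genes, 0.50 over 320 single-exon protein-coding genes and 0.15 over 2620 protein-coding genes with an exon of at least 4000 bases. Among all protein-coding genes SOX12 was at percentile 94.0, SOX4 at percentile 87.5 and SOX11 at percentile 76.5. Among the single-exon genes the same values were at percentile 78.4, 65 and 46.2. SOX11 therefore stood near the middle of the single-exon genes and SOX12 above their 75th percentile.

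**Figure D2:**
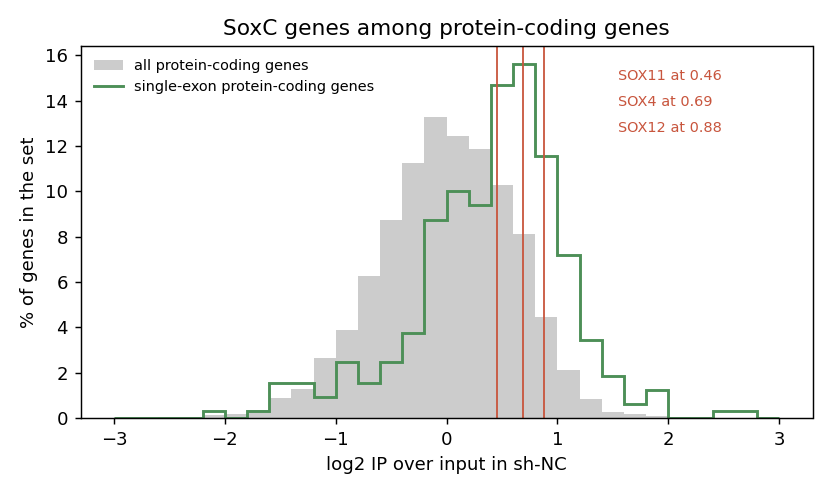
Distribution of log2 IP over input in sh-NC (x axis) as the percentage of genes per bin (y axis) for 13560 protein-coding genes (grey) and 320 single-exon protein-coding genes (green). Red lines mark SOX11 at 0.46, SOX4 at 0.69 and SOX12 at 0.88, all above the grey median of 0.01.

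In shMETTL14 cells the 3 genes were still enriched by the antibody, and SOX12 had moved below SOX4. The log2 IP over input was 0.72 for SOX4 (standard error 0.0375), 0.60 for SOX12 (standard error 0.0452) and 0.39 for SOX11 (standard error 0.0391), and all 3 were called higher in IP, as were 28.9% of genes tested. By culture, the ratio of IP to input was 1.66 and 1.64 for SOX4, which overlapped its range in sh-NC. It was 1.38 and 1.25 for SOX11, which also overlapped. SOX12 had 1.59 and 1.44, both under its sh-NC values of 1.81 and 1.87.

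Between the arms, log2 IP over input moved by -0.28 for SOX12 (standard error 0.0644), -0.06 for SOX11 (standard error 0.0557) and 0.04 for SOX4 (standard error 0.0527). None of the 3 was past an adjusted p-value of 0.05 in edgeR, where 0.00436% of the 22953 genes tested, 1 gene, was. At an unadjusted p-value under 0.05, 1 of the 3 genes, SOX12, passed, as did 6.34% of all genes, and DESeq2 called none of the 3 after adjustment. Ratios of IP to input that were lower in shMETTL14 without overlap, as for SOX12, were found for 17.4% of genes. The SOX12 change was at percentile 7.66 of protein-coding genes. It passed the adjusted threshold only without sh-NC culture 1 (-0.32) and with no filter on low counts (-0.29), and in no other run. Leaving out cultures 1 by 1 put it between -0.35 and -0.21. As SOX12 was chosen with these values known, nothing is read from these passes. The small SOX11 change turned to 0.0068 without shMETTL14 culture 2, and that of SOX4 was 0.0010 without sh-NC culture 2.

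**Figure D3:**
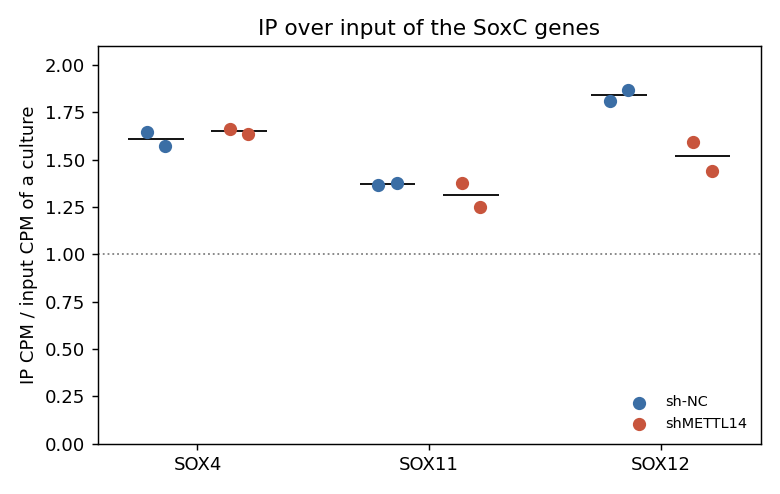
Ratio of IP CPM to input CPM of each culture (y axis, from 0) for SOX4, SOX11 and SOX12, with sh-NC in blue, shMETTL14 in red, means of 2 cultures as lines and a dotted line at equal IP and input. All 12 ratios lie above 1, and SOX12 is the member whose arms do not overlap.

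The IP libraries were also read by themselves. Whether RNA level or m6A moved the SOX12 ratio was not tested. SOX12 had 134 and 130 CPM in the sh-NC IPs and 131 and 124 CPM in the shMETTL14 IPs, which overlapped, while its input was higher in the knockdown. The ratio and the input comparison share the input libraries, so the rise of SOX12 input RNA and the lower ratio are not separate observations. SOX11 had 234 and 238 CPM in the sh-NC IPs and 298 and 278 CPM in the shMETTL14 IPs, higher as in the inputs. SOX4 had 384 and 372 CPM against 339 and 338 CPM, lower as in the inputs. IP levels without overlap were higher in shMETTL14 for 27.8% and lower for 28.3% of genes. Per kilobase, SOX11 stood below SOX12 in the sh-NC IPs, at 0.928 and 0.974 of its level, and above it in the shMETTL14 IPs, at 1.20 and 1.19.

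Of 16 other SOX genes, 10 had enough reads to be tested. In the inputs 3 were lower in shMETTL14 (12.3% of all genes were) and 0 were higher, with a median log2 fold change of 0.01, against 0.00 over all genes. SOX2, the single-exon SoxB1 factor of neural stem cells, had 26.5 and 25.6 CPM in sh-NC against 14.2 and 14.4 CPM in shMETTL14. This was a log2 fold change of -0.86 (standard error 0.0755, edgeR adjusted p = 5.69e-09). SOX9, the SoxE factor of neural crest and glial progenitors, had 17.3 and 19.8 CPM against 13.0 and 10.9 CPM, a log2 fold change of -0.63 (standard error 0.0964, edgeR adjusted p = 2.36e-05). SOX15 had under 1 CPM in every input and a log2 fold change of -1.52 (edgeR adjusted p = 0.0246), and it overlaps the far more abundant MPDU1 by 15 bases, so its counts are uncertain. SOX2 kept its call in every alternative run. SOX9 and SOX15 lost theirs without shMETTL14 culture 2 and with no filter, and SOX15 also without shMETTL14 culture 1 and without sh-NC culture 1, while DESeq2 gave SOX15 no adjusted p. Without sh-NC culture 2, SOX6 was called higher (0.67). SOX6 shares 219 bases with the far more abundant C11orf58, and SOX7 and SOX10 also overlap more abundant genes, so their counts are uncertain too. SOX2, with 1 exon like the SoxC genes, thus had a lower fold than SOX4, while SOX11 and SOX12 were on the other side of 0.

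In IP over input, 2 of the 10 were called higher (SOX2 and SOX5 in sh-NC, SOX2 and SOX9 in shMETTL14) and 1 lower (SOX18) in each arm. Of all genes, 29.1% were higher and 29.8% lower in sh-NC, and 28.9% were higher and 29.1% lower in shMETTL14. The 10 genes had a median of 0.00 in sh-NC and 0.34 in shMETTL14, while their median change between the arms was -0.13. SOX8, SOX10 and SOX15 among them had under 1 CPM in every library. SOX2 was enriched in both arms, with ratios of 1.81 and 1.99 in sh-NC against 1.82 and 1.58 in shMETTL14, close to SOX12 in the control cells. SOX18 is a SoxF factor of vessels with 2 exons. Without sh-NC culture 1 SOX5 lost its call in sh-NC, and without sh-NC culture 2 SOX18 did. Of the 10 genes, 0 changed their IP over input between the arms in edgeR, at an adjusted p-value under 0.05.

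Known targets and partners of SoxC factors were then read in the same inputs. Of 9 such genes, 7 were tested, 3 were higher (11.7% of all genes were) and 0 were lower, with a median log2 fold change of 0.39. The 3 were neuronal cytoskeleton genes. DCX, a microtubule-binding protein of migrating neurons, had 37.3 and 35.8 CPM in sh-NC against 68.4 and 68.4 CPM in shMETTL14, a log2 fold change of 0.91 (standard error 0.0516, edgeR adjusted p = 2.87e-12). TUBB3, the neuronal beta-tubulin, had a log2 fold change of 0.59 (standard error 0.0312) and MAP2, a dendritic microtubule protein, one of 0.39 (standard error 0.0362). A row that overlaps TUBB3 on the same strand had at least 93.0% of its counts, so the same reads may be counted for both, which was not tested. TEAD2 differed by 0.08 (standard error 0.0692), which did not pass, and NEUROD1, POU3F2 and POU3F3 were tested at low counts and did not pass. POU3F1 and POU3F4 were too low to test. In IP over input, 4 of the 7 were called higher in the control arm against 2 that were lower (29.1% and 29.8% of all genes were). After knockdown 2 were called in each direction (28.9% of all genes were higher and 29.1% lower). The 4 called higher in sh-NC include NEUROD1, at 0.420 and 0.554 CPM in the sh-NC inputs, and POU3F3, at 0.839 and 1.08 CPM. Both lost that call with DESeq2, and POU3F3 also with scaling by library size alone. MAP2 lay on the side of the SoxC genes, with ratios of 1.33 and 1.43 in sh-NC against 1.46 and 1.40 in shMETTL14. TUBB3 had 1.09 and 1.08 against 1.03 and 0.998, and its call in sh-NC was lost with scaling by library size alone. DCX was lower in IP, at 0.505 and 0.549 in sh-NC against 0.614 and 0.591 in shMETTL14, on the other side of 1 from the SoxC genes.

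Of 10 adrenergic core transcription factors, 5 were higher and 0 lower in the shMETTL14 inputs (11.7% and 12.3% of all genes were), with a median log2 fold change of 0.29. Among them were GATA2 (0.77), ISL1 (0.45), GATA3 (0.28) and HAND2 (0.14), as log2 fold changes. HAND2 lost its call without either shMETTL14 culture. With no filter on low counts GATA3 and ISL1 lost theirs. The exons of HAND2 overlap an antisense gene with at least 59.8% of its counts. MYCN, amplified in this line, had 4452 and 4224 CPM in sh-NC against 4310 and 4276 CPM in shMETTL14, and its log2 fold change was -0.01 (standard error 0.0274). SOX11, at 0.35, lay below ISL1 and above GATA3.

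Among 27 other single-exon transcription factor genes, 13 were tested and 6 were lower and 1 was higher in the shMETTL14 inputs (12.3% and 11.7% of all genes were), with a median of -0.22. The lower genes were SOX2, JUN, JUNB, JUND, CEBPB and CEBPD. The exons of JUNB overlap those of HOOK2, which had at least 55.5% of its counts. JUN lost its call without either shMETTL14 culture, without sh-NC culture 2 and with no filter, and CEBPD without shMETTL14 culture 2. In sh-NC the IP of 7 of the 13 was above and that of 2 below the input (29.1% and 29.8% of all genes were), with a median log2 value of 0.62, and in shMETTL14 these numbers were 7 and 2 (28.9% and 29.1% of all genes), with a median of 0.13. The sh-NC median was the value of CEBPA, which had under 1 CPM in every library and a value of -0.61 in shMETTL14. Of the genes above the input in sh-NC, FOXC1 and POU3F3 lost their call with DESeq2. With scaling by library size alone FOXC1, POU3F3 and JUND lost theirs. In shMETTL14 JUND lost its call with that scaling and with the filter of 10 counts in every library. The median change of IP over input of the 13 genes between the arms was -0.01. Of the 13, 0 changed their IP over input between the arms in edgeR at an adjusted p-value under 0.05.

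**Figure D4:**
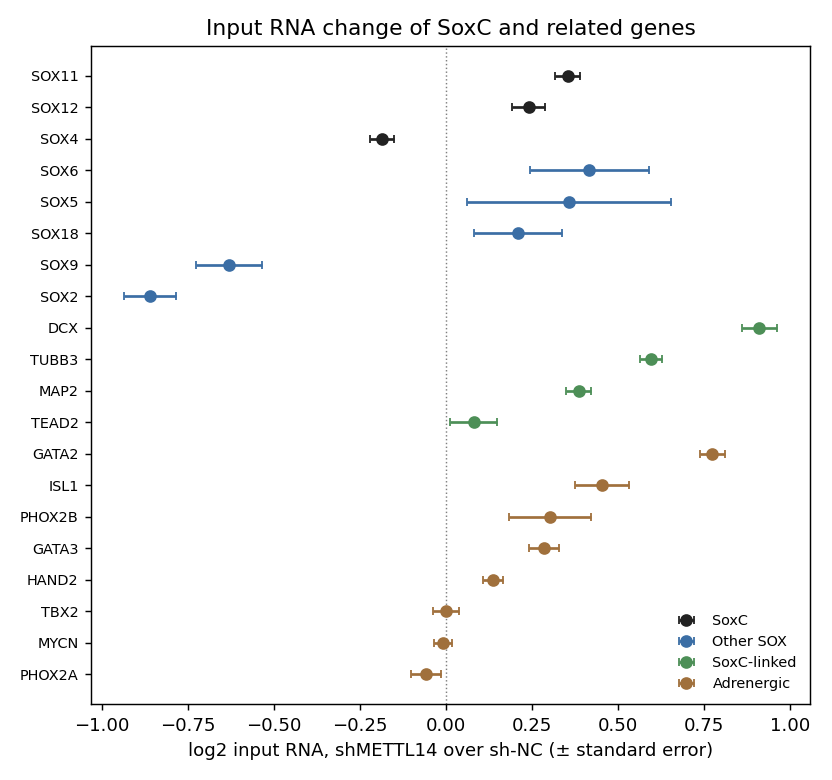
Log2 fold change of input RNA, shMETTL14 over sh-NC (x axis), with its standard error as bars, for the SoxC genes and for genes of the other SOX, SoxC-linked and adrenergic core lists with at least 500 counts over the 8 libraries (20 genes, y axis). SOX11 at 0.35 and SOX12 at 0.24 lie right of 0, SOX4 at -0.19 lies left of it, and SOX2 at -0.86 is the lowest gene shown.

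Genes with a pattern like that of each member were found by correlating log2 CPM over the 8 libraries among 10495 genes with a mean of at least 10 CPM. These values rest on 4 cultures with paired libraries and describe the pattern alone. SOX4 was most like CHSY1 (r = 0.999), ZNF398 (r = 0.999) and TWIST1 (r = 0.999), which were enriched in IP and lower in the shMETTL14 inputs. SOX11 was most like CAMSAP1 (r = 0.998), ZNF470 (r = 0.997) and HARS (r = 0.997), whose input log2 fold changes were 0.27, 0.34 and 0.31. SOX12 was most like AEN (r = 0.998), CCDC102A (r = 0.997) and RBM5 (r = 0.996), with changes of IP over input of -0.21, -0.16 and -0.08. The SoxC genes were less like each other, with r = 0.907 between SOX4 and SOX12, 0.862 between SOX11 and SOX12 and 0.628 between SOX4 and SOX11.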

How the data were processed

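MeRIP-seq was performed in SK-N-BE(2) cells, with 8 libraries assigned to sh-NC or shMETTL14 and to IP or input from the sample titles. Per the labels, the kit keeps strand and adds molecular identifiers. The deposited values are raw counts of reads per gene, made by the authors. The submitters' processing notes name Trimmomatic 0.36 and GRCh38, and the aligner, counter, strand setting and handling of duplicates are not given in the sources used here. Counts may thus include PCR copies.

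Tests used edgeR 4.0.16 in R 4.3.3 (filterByExpr, TMM factors, quasi-likelihood test, Benjamini-Hochberg adjustment, threshold 0.05). Input RNA was compared in the 4 inputs, and IP over input in 1 model of 8 libraries with 4 group means. Standard errors were taken from the log2 fold change and its F value. A prior count of 2 was added for log2 CPM. The fits were tested on simulated data with 200 changed genes.

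The members and lists were chosen with earlier results of these data known. Genes named are METTL14, the members, genes overlapping them, the 3 genes most like each member and genes tested from each list, of which some are counted but not reported by name here. Neighbouring genes in the closing section were named after their values were seen.

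Replicates differed by more than sampling noise (chi-square per gene 2.52 to 4.32). The IP and input of a culture are paired by the protocol, and over 11172 genes the correlation of their deviations from the group mean was -0.087 (sh-NC) and -0.014 (shMETTL14). The alternatives run were RLE factors, scaling by library size alone, DESeq2 1.42.0, filters of 1 read or of 10 counts in every library, a replicate block, other sets of libraries and leaving out each culture.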

Additional observations from a re-analysis of the deposited data

How the results depend on the processing

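The input changes of the 3 SoxC genes and their IP over input in each arm kept their direction in all alternatives run. Scaling by library size alone put the median log2 IP over input of all genes at -0.14 in sh-NC and -0.13 in shMETTL14, and the members at 0.33 to 0.75 and 0.27 to 0.60. With each culture left out, which leaves a lone culture assumed to vary like the others, the input change ran from -0.20 to -0.18 for SOX4, from 0.33 to 0.37 for SOX11 and from 0.19 to 0.29 for SOX12. The change of IP over input lay between 0.0010 and 0.052 for SOX4, between -0.13 and 0.0068 for SOX11, between -0.35 and -0.21 for SOX12 and between -0.0026 and 0.19 for METTL14. With no filter SOX12 passed the threshold for this change (-0.29), by a cause not tested. The IP libraries alone do not remove the RNA change. Their values were -0.16 for SOX4, 0.28 for SOX11, -0.05 for SOX12 and -1.70 for METTL14. In that run 2 other SOX, 4 SoxC-linked, 6 single-exon and 3 adrenergic genes were called. The share of all genes called there was not computed, so nothing is read from these counts.

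The replicate block changed no call of the 3 genes (input changes -0.19, 0.35 and 0.24, changes of IP over input 0.04, -0.06 and -0.28 for SOX4, SOX11 and SOX12). In the lists it removed the call of IP over input of TBX2 in both arms (adjusted p = 0.0885 and 0.0555, edgeR). Across the arms, inputs with the same number are not paired (correlation of deviations -0.033). For list counts, no filter left 1 other SOX and 2 adrenergic genes called in the inputs. Library size alone left 5 adrenergic genes called in IP over input in each arm. The main run had called 7 of the 10 adrenergic genes higher and 1 lower, the same for both arms. Its calls among all genes were 29.1% higher and 29.8% lower for sh-NC, 28.9% and 29.1% for shMETTL14. The share of all genes called was not computed for the alternative runs. Nothing is therefore read from these counts or from those that follow. With cultures left out, 1 to 4 other SOX, 4 to 6 single-exon and 3 to 5 adrenergic genes were called in the inputs, 5 to 8 adrenergic genes in IP over input in shMETTL14 and 0 to 1 in its change. With 2 cultures per arm, replicates limit precision more than depth over all genes, and for the 3 members alone this was not tested.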

Other observations

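Genes beside the SoxC loci were read as values, chosen after they had been seen. LINC01105, a noncoding RNA 231302 bases beyond SOX11 on the same strand, had 7.30 and 7.10 CPM in the sh-NC inputs and 10.2 and 11.2 CPM in the shMETTL14 inputs, a log2 fold change of 0.58 (standard error 0.110, edgeR adjusted p = 2.91e-04). CMPK2, 1139185 bases beyond SOX11, was lower by a log2 fold change of -0.62 (edgeR adjusted p = 0.00579), and AC010729.1, which overlaps SOX11, did not pass (0.26, edgeR adjusted p = 0.332). CASC15, a noncoding RNA 66153 bases beyond SOX4, had 20.1 and 19.1 CPM in sh-NC and 21.4 and 23.5 CPM in shMETTL14, which did not pass (log2 fold change 0.20, edgeR adjusted p = 0.0552), while SOX4 itself was lower. On the 2 sides of SOX12, ZCCHC3 was lower by a log2 fold change of -0.33 (edgeR adjusted p = 5.76e-04) and NRSN2 by -0.25 (edgeR adjusted p = 0.0274), in the direction opposite to SOX12. TRIB3, 32611 bases beyond SOX12, was lower too (-0.47, edgeR adjusted p = 0.00103). Of all genes, 12.3% were called lower in the inputs. NRSN2-AS1, which spans SOX12 on the opposite strand, did not pass (0.12, edgeR adjusted p = 0.714).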
